A study of Homo sapiens with 6 samples.

Results

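The distal part of the long arm of human chromosome 15 was described through 48 protein-coding genes, taken as the rows of the gene table whose symbol was on a list of genes from about 45 Mb onward on hg38. They are 48 of 62700 gene rows, lie between bases 50275392 and 101525202, and 47 of them had enough counts to be tested. The members were chosen by their position and with their log2 fold changes in these same libraries known, so the fold changes are a description and support nothing by themselves. The data are RNA-seq, after removal of ribosomal RNA, of the established prostate cancer line PC3. Of its 6 libraries, 3 are from cells with a control short hairpin RNA (shRNA, genotype given as WT) and 3 from cells with an shRNA against TTC3 (genotype given as TTC3 knockdown). TTC3 encodes an E3 ubiquitin ligase. Both groups are the same cell line in the same medium. The sources used here do not give the hairpin sequence or say whether cells were cloned. The labels do not name separate cultures either, so errors and p-values reflect differences between libraries that may be technical.

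Genes on a chromosome arm are joined by position and not by pathway, and these members do unrelated work. FURIN and ADAM10 cut precursor proteins at the cell surface and in the secretory route, IGF1R receives insulin-like growth factors, MAP2K1 carries the signal from RAF to ERK, IQGAP1 ties small GTPases to actin, and BLM and FANCI act on damaged or stalled DNA. A shift shared by such genes is therefore read by its median, by its spread around that median, and by the members that stand away from it.

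Members were counted as standing above the shift when their log2 fold change (TTC3 shRNA over control, from edgeR) was at least 0.5 above the members' median. They were CSK, ETFA, TLE3 and VPS33B. The members at least 0.5 below the median were FES, MAN2A2 and RORA. The stretches before the RefSeq start of 2 members near or at control level (ETFA and CSK), of the member furthest below (RORA) and of an abundant member well below control (IQGAP1) are shown so that their base composition can be set beside those values. Each is the 250 bases before the start that RefSeq gives (GRCh38.p14), at chr15:76311470-76311719 (minus strand) for ETFA, chr15:74788294-74788543 (plus strand) for CSK, chr15:60627531-60627780 (minus strand) for RORA and chr15:90387992-90388241 (plus strand) for IQGAP1. The starts used for RORA and CSK are internal: they lie 601.8 kb and 6.487 kb inside the outermost GENCODE start, so these 2 stretches are within the gene as counted, while those of ETFA and IQGAP1 lie within 0.024 kb of it. Capitals mark the GC box, GGGCGG on either strand.
ETFA: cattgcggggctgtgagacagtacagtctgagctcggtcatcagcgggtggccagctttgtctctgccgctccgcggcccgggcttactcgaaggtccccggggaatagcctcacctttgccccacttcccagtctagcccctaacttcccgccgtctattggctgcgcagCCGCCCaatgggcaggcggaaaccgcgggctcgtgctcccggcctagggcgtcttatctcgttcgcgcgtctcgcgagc
CSK: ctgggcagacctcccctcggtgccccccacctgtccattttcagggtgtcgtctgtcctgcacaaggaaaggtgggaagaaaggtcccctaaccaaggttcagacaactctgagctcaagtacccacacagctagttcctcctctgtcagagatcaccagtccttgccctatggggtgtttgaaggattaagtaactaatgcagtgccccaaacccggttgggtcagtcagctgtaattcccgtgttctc
RORA: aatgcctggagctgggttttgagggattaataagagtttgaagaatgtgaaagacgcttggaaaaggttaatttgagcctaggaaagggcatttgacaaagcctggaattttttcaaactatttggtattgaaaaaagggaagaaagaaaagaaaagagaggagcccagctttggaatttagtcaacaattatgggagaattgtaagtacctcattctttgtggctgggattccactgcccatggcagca
IQGAP1: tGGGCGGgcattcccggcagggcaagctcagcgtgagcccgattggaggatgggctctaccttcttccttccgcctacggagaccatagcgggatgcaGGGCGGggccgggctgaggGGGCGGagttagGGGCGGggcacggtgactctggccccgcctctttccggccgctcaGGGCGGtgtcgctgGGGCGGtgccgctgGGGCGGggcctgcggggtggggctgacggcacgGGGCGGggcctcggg

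The IQGAP1 stretch was 74.4% G and C with 8 GC boxes, the ETFA stretch 65.6% with 1, the CSK stretch 54.0% with 0 and the RORA stretch 40% with 0. Over the whole window of 250 bases before to 50 after the start, 45 of the 48 members had an entry, with a median of 67% G and C against 58.7% over all 35116 promoters in the table. Those 35116 were not filtered by gene type or expression, while the members are protein-coding genes and nearly all tested. The 2 sets are thus unlike, and the shares below are not read as a trait of the members. A GC box (GGGCGG) was found in 31 of the 45 (68.9%, against 44.95% of all promoters), and a CCAAT box (CCAAT) in 12 (26.7%, against 34.6%). The AP-1 site TGACTCA was found in 3 (6.67%, against 4.95%). The core of the interferon-stimulated response element, 2 copies of GAAA with 2 bases between them, was found in 2 (4.44%, against 3.57%). All motifs were searched on both strands. IQGAP1 had 8 GC boxes, the most of the 45 members. Others well below control had 0 (CHD2 and ARPP19) or 4 (USP3 and MYO9A). Of the members above the shift, TLE3 and CSK had 0 GC boxes and ETFA 1, while VPS33B had no entry. Of those below it RORA and FES had 0 and MAN2A2 3. The start was over 1 kb inside the gene for 8 of the 45 members, RORA, CSK and FES among them. Members above and below the shift are therefore not compared by the box. A match is a run of letters and not a bound site.

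The libraries held 143246356 to 155526861 estimated counts. TTC3 itself was at 680 to 695 CPM (counts-per-million, with library sizes scaled by TMM) in control libraries and at 178 to 228 CPM in TTC3 shRNA libraries. TTC3 shRNA replicate 1 stood apart from its group: the median chi-square per gene, over that of counting noise, was 42.1 and 54.1 against replicates 2 and 3, 8.57 between those 2, and 4.14 to 5.56 between controls. Mitochondrial genes took 6.29% of its counts, 3.73% and 3.54% in replicates 2 and 3, and 5.29% to 5.53% in controls. The epithelial keratins KRT8, KRT18 and KRT19 were each above 138 CPM in every library, and the prostate luminal gene KLK3 had 0 counts in all 6. Summed stromal markers (COL1A1, DCN, LUM) were at 18.7 to 19.9 CPM in control and 43.7 to 102 CPM in TTC3 shRNA libraries, almost all of it COL1A1, with DCN at most 0.0499 CPM. Summed leukocyte markers were at 12.0 to 16.6 and 15.9 to 38.0 CPM, nearly all CD68 with CD3E at 0, and endothelial markers at 4.69 to 5.64 and 2.62 to 3.52 CPM, mostly PECAM1 with CDH5 at 0. Their part in the results below was not tested. In bulk RNA, fewer cells with a gene and less of its RNA per cell cannot be told apart.

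As a set the members were lower in TTC3 shRNA cells. Their median log2 fold change was -0.59, or 0.665 of the control level, against a median of -0.018 over all 24325 tested genes and 0.072 over 10457 protein-coding genes outside chromosome 15 with a mean of at least 5 CPM. The estimate was negative for 45 of 47 members, against 51.4% of all tested genes and 89.5% of the other tested protein-coding genes from 45 Mb onward. By edgeR's quasi-likelihood test (adjusted p below 0.05) 37 members were called lower and 0 higher, where 17.8% of all tested genes were called lower and 15.7% higher. At an adjusted p below 0.01 the count was 27 members (9.84% of all tested genes), and against a fold of 1.5 (edgeR's glmTreat) it was 5 (6.44%). All 3 TTC3 shRNA values lay below all 3 control values for 40 members and 27.0% of all tested genes, and above them for 0 members and 23.3%. Without TTC3 shRNA replicate 1 the median was -0.60 and 39 members were called lower, where 27.8% of all genes were. These counts come from the contrast that chose the list, so nothing is read from them beyond the size of the shift.

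Other genes of the region had a similar median. The other 294 tested protein-coding genes from 45 Mb onward had a median of -0.58, and 195 of them were called lower and 5 higher. The 154 tested protein-coding genes before 45 Mb on the same chromosome had a median of -0.15, with 44 called lower and 12 higher. With a mean of at least 5 CPM, the medians were -0.53 for 187 other distal genes and -0.092 for 110 genes before 45 Mb. In 5 Mb windows by gene start, the median was -0.12 at 40 to 45 Mb (89 genes), -0.37 at 45 to 50 Mb (26 genes) and -0.76 at 50 to 55 Mb (23 genes). All 12 windows from 45 Mb to the end of the arm had negative medians, from -0.76 to -0.32, and the 5 windows before it lay between -0.22 and 0.0015. Among the autosomes and X, chromosome 15 as a whole had the lowest median of protein-coding genes with a mean of at least 5 CPM (-0.42, 340 genes), followed by chromosome 18 (-0.16) and chromosome 13 (-0.059). Chromosome 2 had the highest, at 0.33.

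**Figure D1:**
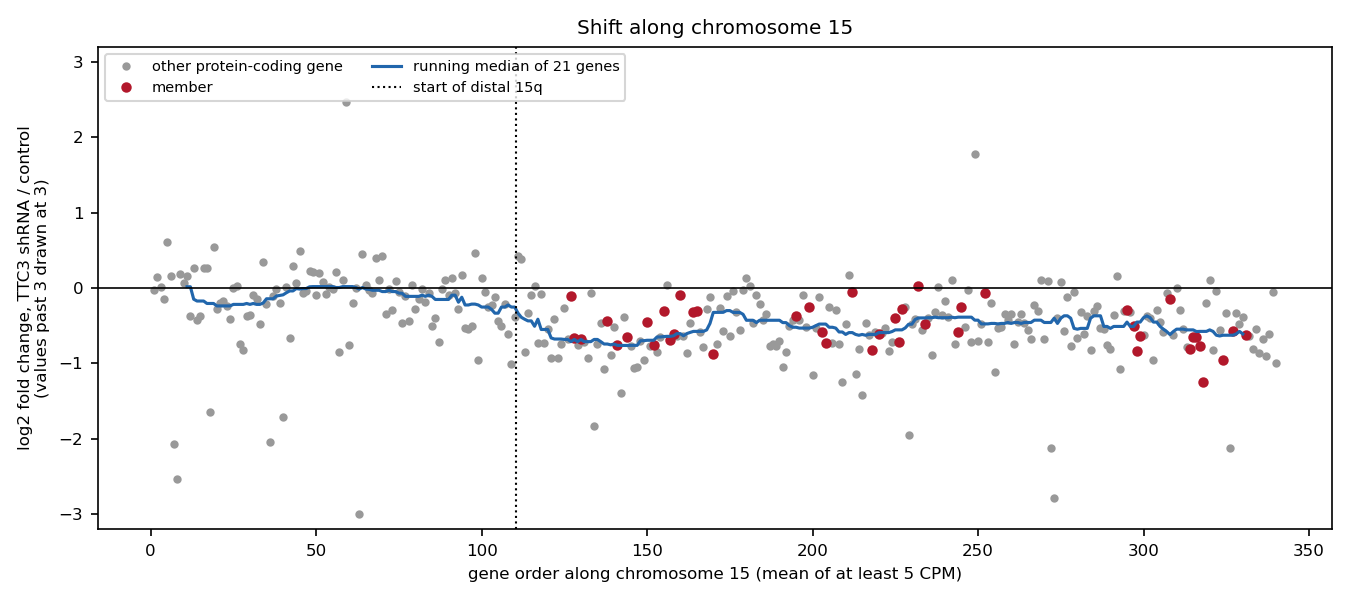
Log2 fold change (TTC3 shRNA over control, values past 3 drawn at 3) of the 340 protein-coding genes of chromosome 15 with a mean of at least 5 CPM, in gene order, which leaves out the 4 tested members under that level. Members are red, other genes grey, the blue line is the running median of 21 genes, and the dotted line is the start of distal 15q. To the left of the dotted line the running median lies mostly nearer 0 but dips in places. The 18 genes at 30 to 35 Mb, for example, had a median of -0.26. The blue line is already below 0 before it reaches the dotted line, and stays below 0 over the whole distal part. Single genes of both kinds scatter around it there.

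Around the median the members' log2 fold changes had an SD of 0.37 and an interquartile range of 0.42, from -0.72 to -0.30. The interquartile range was 0.44 for the 187 other distal genes with a mean of at least 5 CPM and 0.53 for 10457 protein-coding genes outside chromosome 15, which sat around 0.072 instead. The median SE of a member's own fold change was 0.093, so the spread among members was wider than the error of a single gene. Within 0.25 of the members' median lay 28 of 47, and 40 lay within 0.5. Without the 4 members under 5 CPM (FES, NEO1, RORA and VPS33B) the SD was 0.28, since RORA and FES hold the lowest and the third lowest values.

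**Figure D2:**
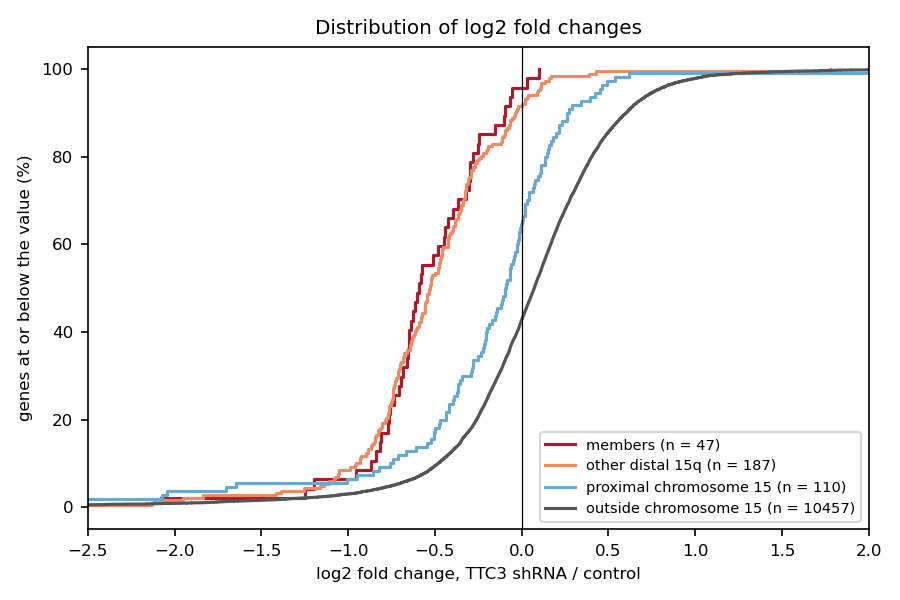
Share of genes (%) at or below each log2 fold change for the 47 tested members, the 187 other distal 15q genes, the 110 genes of chromosome 15 before the distal part and the 10457 genes outside chromosome 15 (all but the members with a mean of at least 5 CPM). The curves for members and other distal genes run close together, left of the other 2.

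Evenness differed between the TTC3 shRNA libraries. Set against the control mean, the members' median was -0.48 in replicate 1, -0.64 in replicate 2 and -0.67 in replicate 3. The interquartile range of the same ratios was 0.22 in replicate 1, against 0.54 and 0.60 in replicates 2 and 3. In replicate 1, 38 of 47 members lay within 0.25 of that library's median, and 22 and 19 did in the other two. For 26 members replicate 1 was the highest TTC3 shRNA library, for 17 the lowest, and for 4 it lay between. Over protein-coding genes outside chromosome 15 the interquartile range was 0.39, 0.64 and 0.69 in replicates 1, 2 and 3, so the lower evenness of replicates 2 and 3 was not confined to the members.

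**Figure D3:**
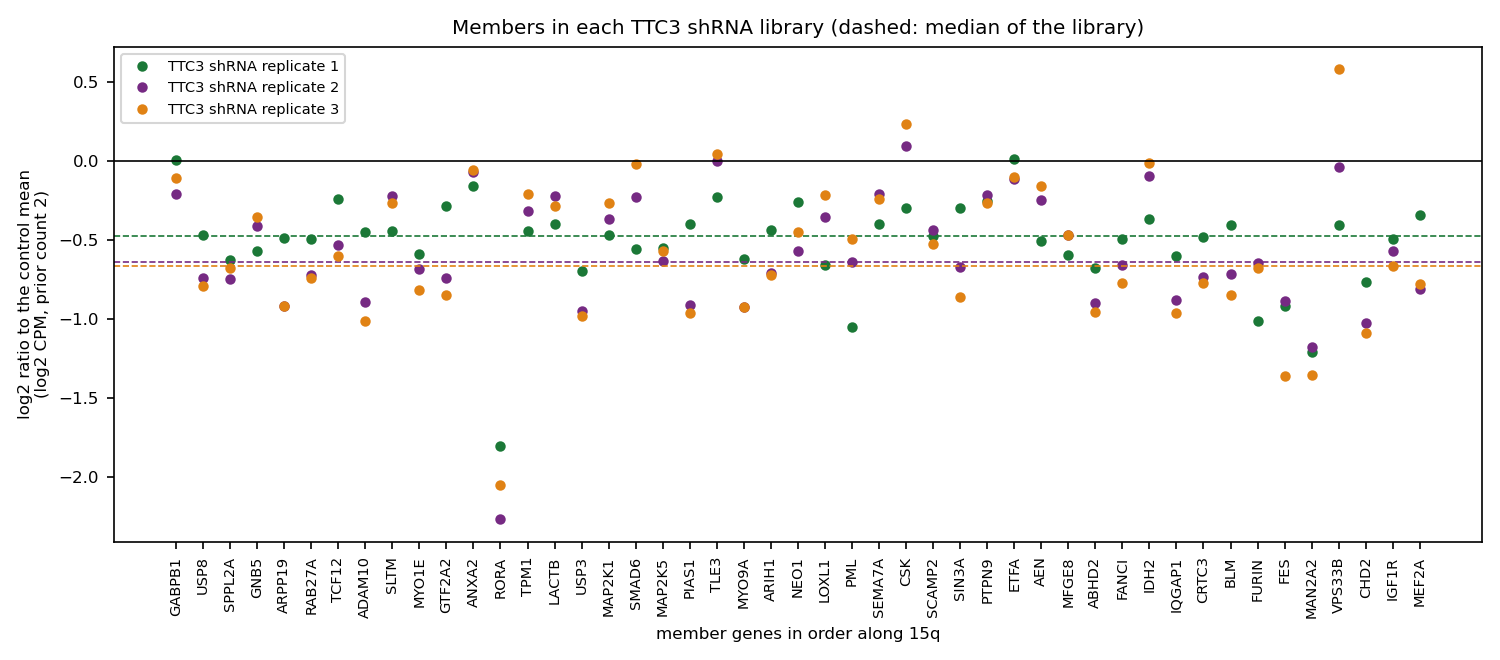
Log2 ratio of each member to the control mean (log2 CPM, prior count 2) in the 3 TTC3 shRNA libraries, with members in order along 15q and dashed lines at each library's median. Replicate 1 (green) keeps close to its median of -0.48 for most members, while replicates 2 and 3 move apart from it in both directions.

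Transcript length and GC content moved with the spread in replicates 2 and 3. Across the 47 members, the ratio changed by -0.097 per doubling of transcript length in replicate 1, -0.23 in replicate 2 and -0.26 in replicate 3 (Pearson r = -0.30, -0.53 and -0.52, a description over genes that share libraries). Over 10457 genes outside chromosome 15 the slopes were -0.024, -0.17 and -0.21. Pearson r of the members' ratio with GC content was -0.11, 0.45 and 0.42 in the same order. Over 10444 genes outside chromosome 15 it was -0.041, 0.39 and 0.42, so the relation with GC was not particular to the members. RNA composition differed in the same libraries: the share of counts from small structural RNAs such as 7SK and the signal recognition particle RNA was 6.04% in replicate 1, 10.6% and 12.6% in replicates 2 and 3, and 7.07% to 7.79% in controls. Its part in the spread was not tested. The trends with length and then with GC were next removed from each library, which was decided once the data had been seen. The median was then -0.52 and the per-library medians were -0.54, -0.51 and -0.55, with interquartile ranges of 0.23, 0.40 and 0.48.

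**Figure D4:**
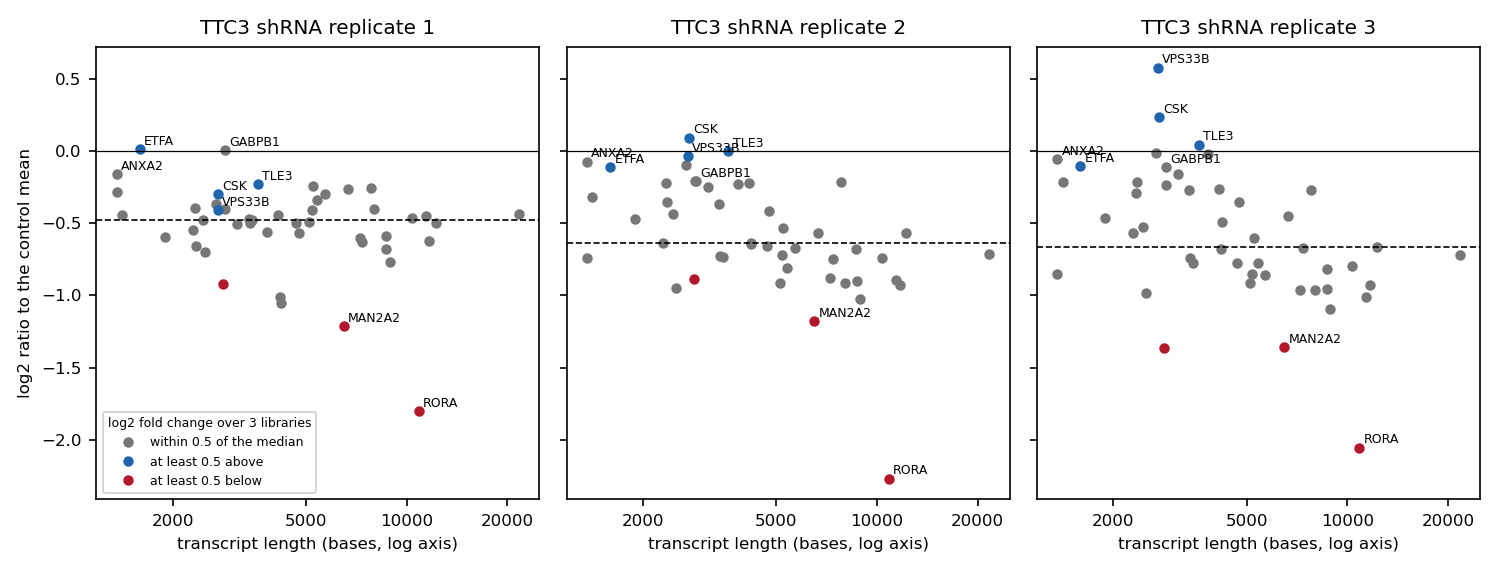
Log2 ratio of each member to the control mean against transcript length (bases, log axis) in each TTC3 shRNA library. Dashed lines are the library medians, and colours mark members at least 0.5 above (blue) or below (red) the median over all libraries. The cloud slopes downward with length in all 3 libraries, less in replicate 1 (-0.097 per doubling) than in replicates 2 and 3 (-0.23 and -0.26).

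Of the members that stood above the shift, ETFA did so by a like distance in every library, 0.49, 0.53 and 0.56 above the medians of replicates 1, 2 and 3, and the other 3 did so mainly in replicates 2 and 3. ETFA (chr15:76215355-76311472), a subunit of the flavoprotein that passes electrons from fatty acid oxidation to the respiratory chain, was at 43.0, 41.9 and 41.9 CPM in control and 42.6, 39.1 and 39.4 CPM in TTC3 shRNA libraries. Its groups overlapped, with replicate 1 inside the control range and replicates 2 and 3 just below it (log2 fold change -0.067 ± 0.06, SE). TLE3 (chr15:70047790-70098176), a transcriptional corepressor, was at 73.7, 77.1 and 76.9 CPM and at 64.8, 75.8 and 78.3 CPM. Only replicate 1 of its TTC3 shRNA libraries lay below all controls. CSK (chr15:74782057-74803198), the kinase that holds SRC family kinases inactive, was at 86.6, 89.3 and 88.8 CPM and at 71.8, 94.2 and 104 CPM. Replicate 1 lay below the control range and the other 2 above it, so its value of 0.028 ± 0.13 averages opposite directions. With library totals in place of TMM, the estimates of CSK and VPS33B were below 0 (-0.11 and -0.041), and without TTC3 shRNA replicate 1 CSK was called higher, at 0.18. VPS33B (chr15:90998416-91022603), which acts in endosomal sorting, was at 3.30, 3.82 and 3.19 CPM and at 2.58, 3.34 and 5.12 CPM. The 3 TTC3 shRNA values of VPS33B span the control range on both sides, and it overlaps the locus ENSG00000284946, so reads may be shared.

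None of the 47 members was at least 0.5 above its library's median in all 3 TTC3 shRNA libraries. The number that was came to 0 in replicate 1, 6 in replicate 2 and 9 in replicate 3. By the smaller distance of 0.3, only GABPB1, ETFA and ANXA2 were above in all 3. GABPB1 (chr15:50275392-50355408), which dimerises with the ETS factor GABPA, was at 24.8, 23.7 and 26.2 CPM in control and 24.98, 21.5 and 23.0 CPM in TTC3 shRNA libraries. ANXA2 (chr15:60347134-60402883), a calcium-dependent membrane binding protein, was at 1325, 1343 and 1369.8 CPM and at 1207, 1279.7 and 1293 CPM. ANXA2 thus lay below control in every TTC3 shRNA library by a small amount, at -0.095 ± 0.06, and was the member just outside the distance of 0.5, with ETFA just inside. ANXA2 has processed pseudogenes with near-identical sequence, so its level is uncertain.

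With both trends removed, the library differences narrowed for CSK, TLE3, IDH2 and GABPB1 but not for ETFA. They widened for other members. SCAMP2 went from -0.48, -0.43 and -0.53 in replicates 1, 2 and 3 to -0.51, -0.72 and -0.84. SPPL2A went from -0.63, -0.75 and -0.67 to -0.70, -0.42 and -0.30. CSK was then at -0.27, -0.31 and -0.23 in replicates 1, 2 and 3, TLE3 at -0.21, -0.28 and -0.26, and IDH2 at -0.41, -0.33 and -0.25. GABPB1 was at -0.071, -0.086 and 0.014, and ETFA at -0.11, -0.23 and -0.24. On that scale VPS33B, at -0.47, -0.17 and 0.45, was the 1 member at least 0.5 above the median, at a distance of 0.5004 with an SE of 0.23, and GABPB1 was 0.47 above it. Without TTC3 shRNA replicate 3, the count of members at least 0.5 above was 1, PCSK6, which passes the filter only in some settings, while it was 6 without replicate 1.

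Genes beside the 4 members were mostly lower. Around CSK, the tested neighbours EDC3, ULK3 and SCAMP2 were at -0.42 ± 0.05, -0.56 ± 0.12 and -0.48 ± 0.06, and CYP1A1 at -3.03 ± 0.40 with a mean of 1.17 CPM. Around ETFA, FBXO22 was at -0.48 and SCAPER at -0.71, while NRG4 (mean 0.157 CPM) and ISL2 (2.17 CPM) were rare. Around TLE3, KIF23, UACA and LARP6 were at -0.48, -1.14 and -0.82, and the ribosomal protein gene RPLP1 at 0.17 ± 0.19, with -0.36, 0.30 and 0.44 in replicates 1, 2 and 3. Beside VPS33B, the midzone spindle gene PRC1 was at 0.0026, -0.099 and -0.0080 in the 3 TTC3 shRNA libraries. The overlapping locus ENSG00000284946 (mean 38.9 CPM) was at -0.56 ± 0.15 and was called lower. On the other side, CHD2, which starts 1902 kb away, was at -0.95 and FAM174B (mean 0.111 CPM) was rare. RPLP1 and PRC1 were thus the 2 abundant neighbours near or above control level.

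**Figure D5:**
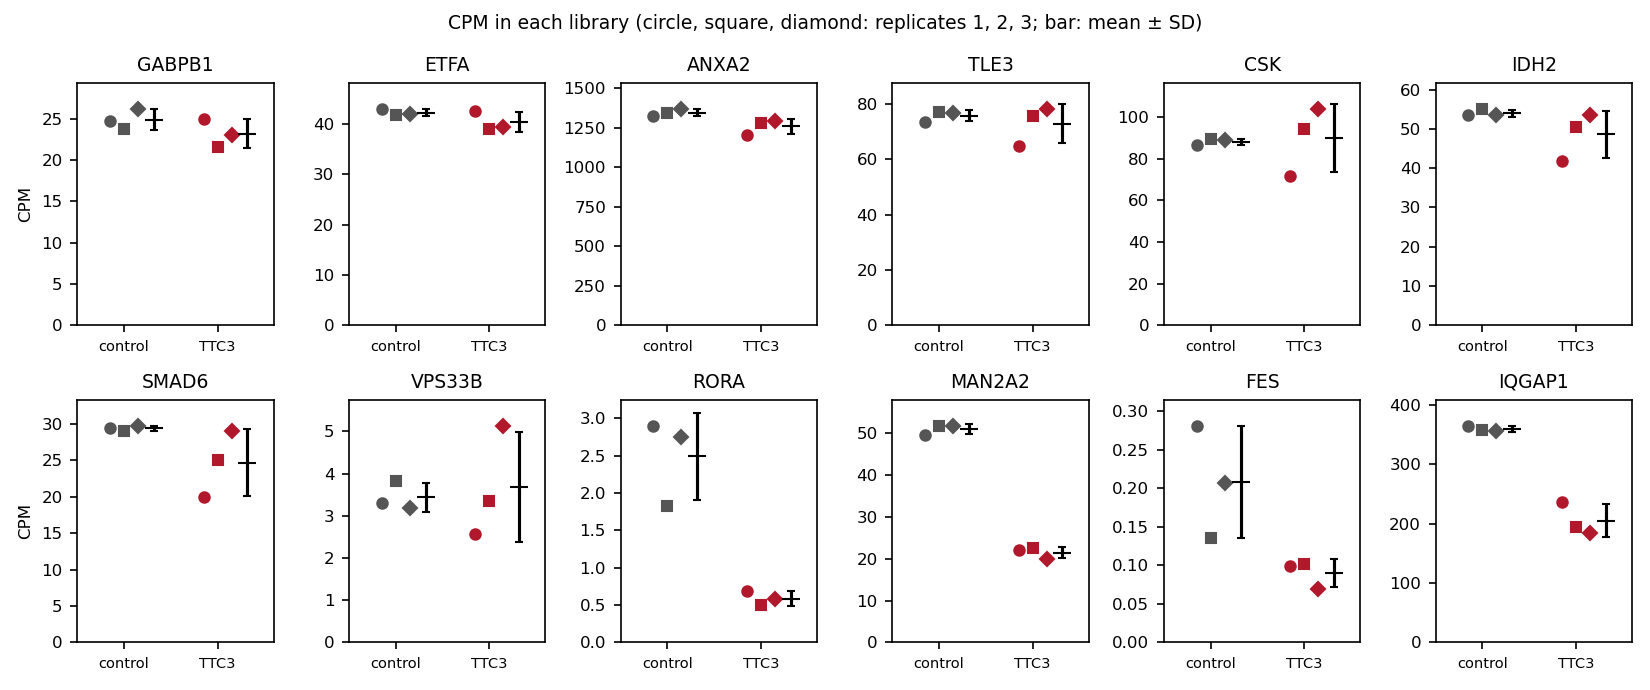
CPM in each library for 12 members, with controls grey and TTC3 shRNA libraries red, replicates 1, 2 and 3 as circle, square and diamond, and black bars at mean ± SD (n = 3). In GABPB1, ETFA, TLE3, CSK, IDH2, SMAD6 and VPS33B the groups overlap, and in RORA, MAN2A2, FES and IQGAP1 they are apart.

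Of the members furthest below, MAN2A2 was the one with a firm level. MAN2A2 (chr15:90902218-90922584), a Golgi mannosidase that trims N-glycans, was at 49.6, 51.7 and 51.7 CPM in control and 22.0, 22.6 and 19.9 CPM in TTC3 shRNA libraries, 42.1% of control (-1.25 ± 0.07). The groups were far apart and the 3 libraries alike. RORA (chr15:60488284-61229319), a nuclear receptor of the circadian clock, was at 2.90, 1.83 and 2.75 CPM and at 0.690, 0.496 and 0.578 CPM (-2.08 ± 0.23). FES (chr15:90883695-90895776), a cytoplasmic tyrosine kinase best known from myeloid cells, was at 0.281, 0.136 and 0.208 CPM and at 0.0995, 0.102 and 0.0696 CPM. It was so rare that its value of -1.20 ± 0.40 was not called. CHD2, a chromatin remodeller, was the member just outside the lower distance, at -0.95 ± 0.09.

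The counts by role that follow are read against the 37 of 47 members, 66.3% of the other distal genes and 17.8% of all tested genes called lower, and no role is set apart by them. Among receptors, IGF1R (chr15:98648539-98964530) was at 117, 118 and 117 CPM in control and 83.4, 79.3 and 74.1 CPM in TTC3 shRNA libraries. All 3 TTC3 shRNA values were below control, at 67.1% of its mean (-0.58 ± 0.06), close to the members' median. NEO1, a netrin and repulsive guidance receptor, was at -0.42 ± 0.12, and SEMA7A, a membrane-anchored semaphorin, at -0.28 ± 0.07. The median over these 3 was -0.42.

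Of 6 kinases and signal carriers, 3 were called lower. MAP2K1 (chr15:66386817-66492312), which encodes MEK1, was at 92.3, 91.7 and 89.8 CPM and at 65.9, 70.6 and 75.7 CPM, with groups apart (-0.37 ± 0.07). MAP2K5, the kinase above ERK5, was at -0.58 ± 0.07, and GNB5, a G protein beta subunit, at -0.44 ± 0.08. SMAD6, an inhibitor of BMP signalling, was at 29.5, 28.98 and 29.7 CPM and at 19.9, 25.1 and 29.03 CPM, where replicate 3 reached the control range. CSK and FES, described above, were the other two. The phosphatase PTPN9 was at -0.25 ± 0.06 with -0.26, -0.21 and -0.27 in the 3 libraries, a small difference. It was even only before trends were removed: with length and GC trends removed the values were -0.32, -0.042 and -0.029. ARPP19, an inhibitor of the phosphatase PP2A in mitosis, was at 211, 201 and 201 CPM and at 145, 108 and 108 CPM (-0.76 ± 0.12).

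The 3 tested proteases had a median of -0.76 and all were called lower. FURIN (chr15:90868592-90883458) was at 44.6, 48.6 and 45.8 CPM and at 22.9, 29.6 and 28.9 CPM, lowest in replicate 1. ADAM10 (chr15:58588807-58749978), a sheddase that also cleaves Notch receptors, was at 109, 108 and 109 CPM and at 79.4, 58.4 and 53.7 CPM, highest in replicate 1. SPPL2A, an intramembrane protease, was at -0.68 ± 0.06. PCSK6, a proprotein convertase like FURIN, had 0, 28 and 0 counts in control and 20, 0 and 0 in TTC3 shRNA libraries and was not tested.

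The 5 ubiquitin and SUMO enzymes had a median of -0.71, and 5 were called lower. The deubiquitinases USP3 and USP8 were at -0.87 ± 0.09 and -0.66 ± 0.10, the ubiquitin ligase ARIH1 at -0.62 ± 0.09 and the SUMO ligase PIAS1 at -0.74 ± 0.15. PML (chr15:73994673-74047812), which scaffolds SUMO-rich nuclear bodies and is induced by interferon, was at 85.9, 88.3 and 90.2 CPM and at 42.5, 56.6 and 62.6 CPM. Its lowest ratio, -1.05, was in replicate 1.

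Of 5 cytoskeletal members, 4 were called lower, with a median of -0.69. IQGAP1 (chr15:90388218-90502243) was at 364, 358 and 356 CPM and at 236, 195 and 184 CPM, 57.1% of control (-0.81 ± 0.10). The myosins MYO1E and MYO9A, motor proteins that act on actin filaments, were at -0.69 ± 0.07 and -0.82 ± 0.09. TPM1, a tropomyosin that lines actin filaments, was at -0.32 ± 0.08, and ANXA2 was near control. In membrane traffic, the secretory small GTPase RAB27A was at -0.65 ± 0.10 and the secretory carrier protein SCAMP2 at -0.48 ± 0.06, with -0.48, -0.43 and -0.53 in the 3 libraries.

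Transcription and chromatin members ranged from -2.08 to -0.057 (median -0.60), and 8 of 10 were called lower. CHD2 (chr15:92900189-93028005) was at 183, 177 and 184 CPM and at 107, 89.4 and 85.2 CPM. SIN3A, the scaffold of a histone deacetylase complex, was at -0.59 ± 0.14 and was itself the median member. MEF2A and TCF12, DNA-binding factors of muscle and lineage genes, were at -0.63 ± 0.13 and -0.45 ± 0.10, CRTC3, a coactivator of CREB, at -0.66 ± 0.09, GTF2A2, a subunit of TFIIA, at -0.60 ± 0.15, and the RNA-binding SLTM at -0.31 ± 0.07. TLE3 and GABPB1 were the 2 not called.

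For genome stability, the helicase BLM was at 31.4, 28.5 and 28.96 CPM and at 22.3, 18.0 and 16.4 CPM (-0.65 ± 0.12), and FANCI of the Fanconi pathway was at -0.64 ± 0.08. AEN, a p53-induced nuclease, was at -0.30 ± 0.10 and was not called, although its groups did not overlap. The 4 metabolic members split: ABHD2, a lipid hydrolase, was at 179, 182 and 184 CPM and at 113, 97.4 and 93.7 CPM (-0.84 ± 0.08), and the mitochondrial LACTB at -0.30 ± 0.09. IDH2, the mitochondrial NADP-dependent isocitrate dehydrogenase, was at 53.5, 55.1 and 53.4 CPM and at 41.9, 50.5 and 53.5 CPM. Only its replicate 3 was inside the control range. ETFA, as given above, was at control level in replicate 1. The secreted LOXL1, a collagen and elastin cross-linker, and MFGE8, a bridge to phosphatidylserine, were at -0.40 ± 0.11 and -0.51 ± 0.07.

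Transcript estimates of the members leaned the same way. Of 173 tested transcripts of members, 135 were negative, with a median of -0.53 and an interquartile span of -0.92 to -0.071, against a median of -0.021 over 53805 transcripts. For CSK the main transcript ENST00000220003.14 was at 84.6 ± 0.861 CPM in control and 84.4 ± 16.7 CPM in TTC3 shRNA libraries (SD, n = 3). The main ANXA2 transcript ENST00000451270.7 was at 909 ± 9.46 and 733 ± 18.8 CPM (-0.31 ± 0.04), below the gene as a whole, while ENST00000421017.6 was at 208 ± 24.6 and 225 ± 4.55 CPM. The GABPB1 transcript ENST00000220429.12 was at 15.7 ± 1.499 and 13.0 ± 1.39 CPM. Transcripts of ETFA and TLE3 went both ways. For ETFA, ENST00000557943.6 was at 8.11 ± 4.84 and 3.26 ± 2.22 CPM, and ENST00000433983.6 at 6.77 ± 5.94 and 8.55 ± 0.629 CPM. Log2 fold changes of TLE3 transcripts ran from -3.23 ± 1.00 to 2.14 ± 0.86 (SE). Isoforms share sequence, so single estimates are uncertain. Of the 47 members, 29 overlap another tested gene, 16 of them on the same strand, and although the library kit keeps strand, whether counting used it is not stated.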

How the data were processed

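PC3 libraries (3 control shRNA, 3 TTC3 shRNA) were grouped and numbered by title. The deposited tables hold estimated counts per gene and transcript, whole numbers not scaled for library size. The submitters' processing notes name Trim Galore, STAR, StringTie and hg38. The sources used here do not give versions, settings or the annotation release.

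The 47 tested members and all other genes were fitted together with edgeR 4.0.16 (R 4.3.3): filterByExpr, TMM scaling, glmQLFit and glmQLFTest over 6 libraries without a block, and Benjamini-Hochberg adjustment over 24325 genes. SE is the size of the log2 fold change divided by the square root of F. Ratios of single libraries use log2 CPM (prior count 2). Gene positions, and transcript sequences for length and GC, were read from GENCODE 29 (GRCh38), which held 58207 of 62700 gene rows by identifier. Length and GC content are means over a gene's transcripts weighted by control counts. Trends (lowess, span 0.5) were fitted on protein-coding genes outside chromosome 15 with a mean of at least 5 CPM. Alternatives included DESeq2 1.42.0 and limma 3.58.1 (voom). The fits were tested on simulated data.

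The members, lists and role groups were chosen with earlier results of these data known. Named genes were all members, the 2 nearest tested protein-coding genes on either side of members above the shift, the 5 highest and 5 lowest other distal genes with a mean of at least 5 CPM, TTC3 and the cell type markers, some of which are not reported here. No 2 libraries were identical. Replicates differed by more than counting noise, so none was taken as a library deposited again. Whether they are separate cultures is not shown by this. With 143246356 or more counts per library, the spread between libraries limits precision for all but the rarest members.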

Additional observations from a re-analysis of the deposited data

How the results depend on the processing

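The median log2 fold change of the members stayed negative in every alternative run, and the number called lower stayed between 27 and 43 of 46 to 48 members, except that 5 were called against a fold of 1.5 (glmTreat), where 6.44% of all genes were called lower. At an adjusted p below 0.01 it was 27 (9.84% of all genes). With library totals alone the median was -0.71, 42 members were called lower, the median of all genes shifted by -0.13 and calls over all genes stood at 5356 lower and 2518 higher against 4338 and 3827. With the length trend removed they stood at 5514 and 2888 and the median of all genes shifted by -0.14, and with length and GC trends removed at 6461 and 3621 with a shift of -0.14. Relative to protein-coding genes outside chromosome 15 with a mean of at least 5 CPM, the members' median was -0.66 in the fit reported, -0.66 with library totals alone, -0.58 with the length trend removed and -0.51 with both trends removed.

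The number of members at least 0.5 above the median was 4, and became 10 at a distance of 0.3, 0 at a distance of 1 and 1 with both trends removed. Taken alone, TTC3 shRNA libraries 1, 2 and 3 gave 0, 6 and 9. The median was -0.48 in library 1 alone and the SD 0.47 in library 3 alone. Without members under 5 CPM the SD was 0.28. From 40 Mb in place of 45 Mb, the median of the other distal genes was -0.51. Leaving out each library in turn gave 27 to 39 members called lower where 10.8% to 27.8% of all genes were (the highest of both without TTC3 shRNA replicate 1), medians of -0.60 to -0.52, SDs of 0.35 to 0.44 and 1 to 6 members above. No called member changed sign in any alternative, and 0 members were called higher in all but the fit without TTC3 shRNA replicate 1, which called CSK (0.18).

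With the replicate number as a block, 36 members were called lower (15.3% of all genes), the median was -0.61, the SD 0.37 and 6 members stood above (GABPB1 and ANXA2 added). Same-numbered libraries shared deviations with correlations of 0.14, 0.12 and 0.032. With 3 libraries per group these cannot settle whether the numbers pair the libraries, so each is taken as a number only. Replicates 1 and 2 correlated best with their own number and replicate 3 did not.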

Other observations

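Other distal 15q genes reached further than the members. The 5 lowest among those with a mean of at least 5 CPM were CEMIP, which degrades hyaluronan, the arrestin-domain gene ARRDC4, the depalmitoylase ABHD17C, the DNA-binding ARID3B and the actin-capping TMOD2. CEMIP was at 75.7 ± 1.97 CPM in control and 10.99 ± 1.26 CPM in TTC3 shRNA libraries (SD, n = 3 each), and ARID3B at 53.7 ± 1.11 and 13.9 ± 0.197 CPM. ABHD17C was at 16.0 ± 0.658 and 3.68 ± 0.303 CPM, ARRDC4 at 11.7 ± 0.631 and 2.68 ± 0.231 CPM, and TMOD2 at 11.5 ± 0.740 and 3.22 ± 0.582 CPM. Each was far below the regional median of -0.53, with log2 fold changes from -2.78 to -1.84.

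The 5 highest were CSPG4, SORD, SPATA5L1, RPLP1 and MRPL46. CSPG4, a cell surface proteoglycan, was at 3.82 ± 0.111 CPM in control and 13.1 ± 2.38 CPM in TTC3 shRNA libraries, the largest positive value of the set (1.78 ± 0.15, SE). SORD, sorbitol dehydrogenase, was at 55.7 ± 0.469 and 74.9 ± 2.83 CPM. SPATA5L1 was at 21.8 ± 1.01 and 28.5 ± 7.51 CPM, a difference smaller than the spread of its TTC3 shRNA libraries. SORD and SPATA5L1 start at bases 45023104 and 45402331, at the near edge of the region, before the first member.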
